A study of Mus musculus with 2 samples.

Results

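The 7 genes Bnip3l, Ulk1, Foxo3, Xpo7, Trim58, Trim10 and Ube2o were described in open chromatin maps of mouse spleen, out of 21938 protein-coding genes. They were taken by name as genes that act when a red cell precursor clears its organelles and matures. Maps were made by DNase-seq, in which nuclei are cut lightly with DNase I and the cut ends are sequenced, so that accessible DNA stands out as peaks. The tissue was whole spleen from males of B6CASTF1/J, an F1 cross of mouse strains, aged 14 days. All samples formed 1 group with 2 biological replicates and 1 library each. Replicate 1 was made from 3 males and replicate 2 from 1 male, per the labels, and both carry the same donor entry. With no second group and 1 library for each replicate, the values below are descriptions, and differences between the libraries have no replicate check and no test.

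A red cell precursor in the spleen ends its maturation by expelling its nucleus, and the resulting reticulocyte then removes its mitochondria and ribosomes and much of its protein. Mitochondria are removed by autophagy, in which a membrane closes around the organelle and fuses with the lysosome. Proteins are removed through ubiquitin, which ligases attach to them before the proteasome degrades them. Several of these genes are also used in other cells of the spleen, and in whole tissue a change in the number of cells with an open site cannot be told apart from a change in how open it is in each cell.

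Each library came with 2 lists of peaks on the mm10 build, and the one with fewer bases is called the strict list here. It held 48286 peaks in replicate 1 and 28837 in replicate 2. Signal means the authors' own height of a peak, and neither labels nor file descriptions give its scale. Read depth is unknown, so no counting interval is given. Strict peaks of the libraries that shared at least 1 base were merged into 1 site. A site counts as called in a library that has a strict peak there. When it is called in 1 library alone, the larger list of the other can still hold a peak. A promoter site lay within 1 kb of a start of the gene's transcripts in GENCODE M21, and a distal site lay further than 1 kb from the start of every protein-coding gene. Sites were taken in the gene body widened by 20 kb on each side. Of promoters of marker genes for cell types, 6 of 7 for red cells and 4 of 5 for B cells had a strict peak in both libraries, with Alas2 and Ms4a1 peaked in replicate 1 alone. The counts were 1 of 4 for T cells, 1 of 3 for megakaryocytes, 1 of 3 for stroma, and 0 of 4 for macrophages, 0 of 4 for granulocytes and 0 of 3 for hepatocytes. Vcam1, S100a8, Gp9 and Apob, of the macrophage, granulocyte, megakaryocyte and hepatocyte markers, were also peaked in replicate 1 alone. Of all protein-coding genes 51.1% had a strict promoter peak in both libraries. The part of each cell type in the values of the 7 genes was not tested.

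The stretches of DNA on which the results turn are printed from the mm10 reference (RefSeq GRCm38), 5′ to 3′ on the strand of the gene. The reference is that of C57BL/6J, so the other parent's alleles of the cross are not shown. Capitals mark matches on either strand to GATAA, the core bound by GATA factors such as GATA1 (TTATC on the other strand), to CACCC, a core of KLF1-type factors (GGGTG), and to GGGCGG, the GC box that SP and KLF factors bind (CCGCCC). They also mark the CTG that lies 7 to 9 bases before a GATAA, an arrangement bound by the TAL1 and GATA1 complex. The GATAA of this composite is counted among the GATAA matches as well. A match describes letters and does not show binding. Footprints, named below, are short stretches inside open DNA that were protected from cutting, as the authors called them.

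The 2 promoters with the highest signal among the 7 are shown upstream of the start site for their GC boxes, and the Trim10 promoter for a GATAA that lay in footprints of both libraries.
Ulk1 promoter, chr5:110810098-110810320, minus strand: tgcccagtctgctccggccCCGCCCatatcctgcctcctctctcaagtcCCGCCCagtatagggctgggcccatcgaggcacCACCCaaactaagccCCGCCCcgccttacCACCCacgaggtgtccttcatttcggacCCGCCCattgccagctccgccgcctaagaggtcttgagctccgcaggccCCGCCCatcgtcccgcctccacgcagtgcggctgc
Bnip3l promoter, chr14:67008878-67009020, minus strand: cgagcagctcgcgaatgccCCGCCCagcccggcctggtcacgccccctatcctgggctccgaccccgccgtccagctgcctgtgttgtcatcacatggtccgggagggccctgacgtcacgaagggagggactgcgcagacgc
Trim10 promoter, chr17:36869361-36869573, plus strand: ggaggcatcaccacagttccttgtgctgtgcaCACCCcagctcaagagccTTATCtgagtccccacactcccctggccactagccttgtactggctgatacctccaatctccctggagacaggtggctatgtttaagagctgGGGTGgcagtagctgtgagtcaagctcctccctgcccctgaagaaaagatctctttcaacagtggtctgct

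The 3 distal sites that hold the composite of CTG and GATAA are shown next, all in introns.
Foxo3 intron 2 site, chr10:42265081-42265320, minus strand: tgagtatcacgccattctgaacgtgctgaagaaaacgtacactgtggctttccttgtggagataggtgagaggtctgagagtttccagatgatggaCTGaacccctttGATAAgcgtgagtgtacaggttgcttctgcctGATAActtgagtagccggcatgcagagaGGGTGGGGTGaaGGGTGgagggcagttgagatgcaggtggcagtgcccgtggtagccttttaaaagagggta
Xpo7 intron 1 site, chr14:70713081-70713280, minus strand: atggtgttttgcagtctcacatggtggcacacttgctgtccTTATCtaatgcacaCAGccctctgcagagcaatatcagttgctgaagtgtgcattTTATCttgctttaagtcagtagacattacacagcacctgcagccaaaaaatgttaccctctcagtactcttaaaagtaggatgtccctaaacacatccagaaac
Trim58 intron 1 site, chr11:58641701-58641920, plus strand: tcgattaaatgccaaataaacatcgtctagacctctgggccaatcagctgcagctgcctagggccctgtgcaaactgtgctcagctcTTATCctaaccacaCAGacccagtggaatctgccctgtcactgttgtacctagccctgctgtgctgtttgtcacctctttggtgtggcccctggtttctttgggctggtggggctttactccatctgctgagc

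The strongest distal sites of Ube2o and Ulk1 are shown because one holds a GATAA and the other has none of the marked letters.
Ube2o intron 1 site, chr11:116571981-116572180, minus strand: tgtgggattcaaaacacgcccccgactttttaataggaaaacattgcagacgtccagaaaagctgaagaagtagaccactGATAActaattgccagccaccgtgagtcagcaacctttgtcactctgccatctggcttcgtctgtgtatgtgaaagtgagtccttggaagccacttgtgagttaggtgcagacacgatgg
Ulk1 intron 3 site, chr5:110808361-110808580, minus strand: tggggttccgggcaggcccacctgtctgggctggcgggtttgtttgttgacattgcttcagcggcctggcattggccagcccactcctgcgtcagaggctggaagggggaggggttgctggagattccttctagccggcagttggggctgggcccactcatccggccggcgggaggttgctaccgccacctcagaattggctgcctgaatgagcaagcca

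Last come sites at start sites inside Xpo7 and Ube2o, each with a GATAA in a footprint of replicate 1. The Xpo7 stretch ends at the internal start.
Xpo7 internal start, chr14:70708036-70708220, minus strand: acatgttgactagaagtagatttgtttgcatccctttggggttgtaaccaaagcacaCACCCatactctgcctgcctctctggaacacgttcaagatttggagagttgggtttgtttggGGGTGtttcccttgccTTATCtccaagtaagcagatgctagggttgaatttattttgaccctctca
Ube2o internal start, chr11:116549361-116549580, minus strand: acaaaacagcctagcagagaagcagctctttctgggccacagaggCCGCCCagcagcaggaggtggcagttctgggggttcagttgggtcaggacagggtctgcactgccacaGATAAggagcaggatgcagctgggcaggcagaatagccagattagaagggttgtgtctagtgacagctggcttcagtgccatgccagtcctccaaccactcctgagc

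All 7 genes had a strict promoter peak in replicate 1, where 56.7% of protein-coding genes had one, and all 7 had one in replicate 2, against 51.4%. Both libraries had one at 51.1% of protein-coding genes. The strongest promoter peaks spanned a wide range. From the highest mean down the genes were Ulk1, Bnip3l, Foxo3, Ube2o, Xpo7, Trim10 and Trim58. Ulk1 over Trim58 was 8.63 in replicate 1 and 7.63 in replicate 2. In replicate 1 Trim10 stood above Xpo7 and in replicate 2 below it, and the other 5 genes kept their places. Means of neighbours in this order lay closer than the larger of their SDs for Ulk1 and Bnip3l, for Ube2o and Xpo7, for Xpo7 and Trim10, and for Trim10 and Trim58. Bnip3l lay above Foxo3, and Foxo3 above Ube2o, by more than that. Replicate 1 was higher at every one of the 7, so the SDs hold a shift in the same direction.

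**Figure D1:**
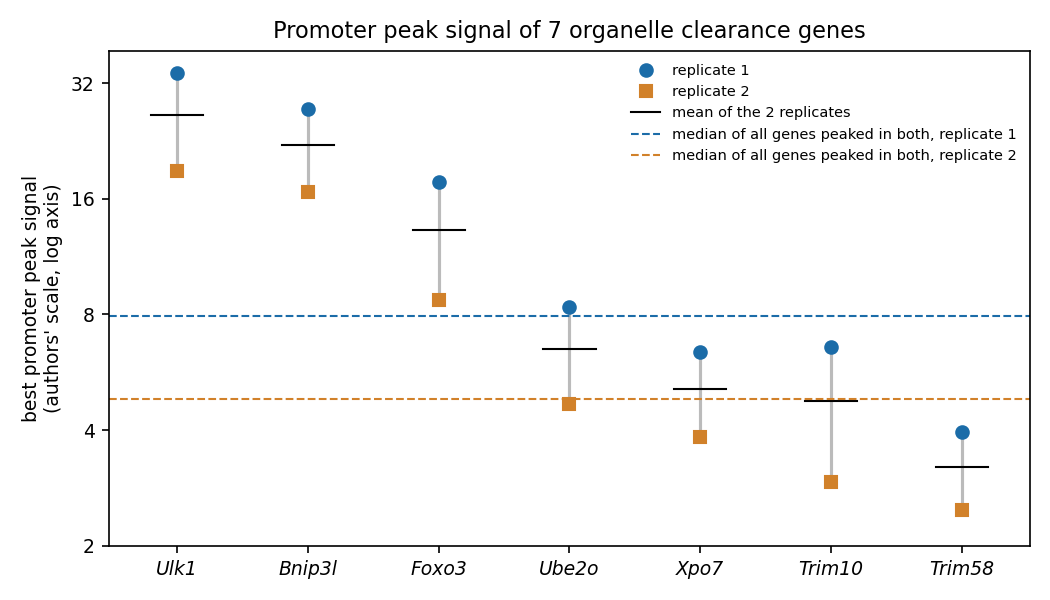
The strongest promoter peak of each of the 7 genes in each library, as signal on the authors' scale (log axis), with the mean as a bar and the medians of all genes peaked in both libraries as dashed lines. Ulk1, Bnip3l and Foxo3 lie above the median of their library in both replicates, Ube2o lies above it in replicate 1 (8.35 against 7.94) and below it in replicate 2 (4.67 against 4.82), and Xpo7, Trim10 and Trim58 lie below it in both.

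Bnip3l (ENSMUSG00000022051.15, chromosome 14:66985239-67008877, minus strand) encodes NIX, the receptor on the outer membrane of mitochondria that brings them to the autophagy machinery in reticulocytes. Its promoter peak, centred at -34 bases from the start site (negative is upstream), had a signal of 27.4 in replicate 1 and 16.7 in replicate 2. The mean was 22.0 ± 7.60 (SD, n = 2), at percentile 98.53 of the genes with a promoter peak in both libraries. A weaker site in intron 1, centred at 296 bases, had 4.98 and 2.67. Bnip3l had 3 promoter sites, 2 of them called in both libraries. No strict peak lay further than 1 kb from a start anywhere in its 63.64 kb window, in either library, while 58.2% of protein-coding genes had at least 1 distal site in 1 or both libraries.

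Ulk1 (ENSMUSG00000029512.11, chromosome 5:110784488-110810097, minus strand) encodes the kinase that starts autophagosome formation, and reticulocytes use it to clear mitochondria and ribosomes. Its promoter peak, centred at -104 bases, had the highest signal of the 7 genes, 34.1 in replicate 1 and 18.9 in replicate 2. The mean was 26.5 ± 10.7 (SD, n = 2), at percentile 99.56. The printed promoter holds 5 GC boxes, and every one overlapped a footprint in both libraries. In replicate 1 these footprints were 18 to 46 bases wide and all 5 boxes lay wholly inside. In replicate 2 the box at positions 50 to 55 shared 4 of its 6 bases with a footprint and the other 4 lay wholly inside. Footprints took up much of this stretch, and whether GC boxes overlapped them more often than other letters was not tested. The printed upstream stretch of Bnip3l holds 1 GC box, at positions 20 to 25, which lay wholly in a footprint of 42 bases in replicate 1 and of 41 bases in replicate 2.

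Ulk1 had 1 distal site, in intron 3 at 1.63 kb, with 4.52 in replicate 1 and 2.52 in replicate 2. Among distal sites of the genome called in the same library this was percentile 94.78 and 83.36. It had 3 footprints in each library, and the one at positions 91 to 115 of the printed stretch in replicate 1 overlapped one at 96 to 115 in replicate 2. Weak sites at 577 bases (0.764) and at an internal start in exon 22 (0.881) were called in replicate 1 alone. The one at 577 bases had 0.716 in the larger list of replicate 2. Within the Ulk1 window the promoter of Ep400, a chromatin remodelling ATPase, had 29.7 and 17.8, close to the Ulk1 level, and that of Pus1 had 6.03 and 4.16. A second Ep400 site (1.45) was called in replicate 2 alone. The Ulk1 window measured 65.61 kb.

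Foxo3 (ENSMUSG00000048756.11, chromosome 10:42181841-42276755, minus strand) encodes a forkhead transcription factor that drives antioxidant and autophagy genes and is needed for late red cell maturation. Its strongest promoter peak lay almost 1 kb upstream, centred at -999 bases, with 17.7 in replicate 1 and 8.72 in replicate 2. The mean was 13.2 ± 6.37 (SD, n = 2), at percentile 84.49. The peak over the start site itself, centred at 21 bases in exon 1, was lower in both libraries, at 8.20 and 4.86, and would be the strongest with a promoter limit of 500 bases. A weaker promoter site, at 1.18 kb in intron 1, had 2.11 and 1.68. All 3 promoter sites were called in both libraries. Foxo3 also had the most distal sites of the 7 genes, 11, of which 4 were called in both libraries, 6 in replicate 1 alone and 1 in replicate 2 alone. A further peak just outside the promoter limit, centred at -1.41 kb, had 6.50 and 4.72, the highest signal of any distal site of the 7 genes. Together with the promoter site at -999 bases it formed a pair of peaks upstream of the gene.

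Inside the gene 9 distal sites were called, 7 of them in intron 2. In replicate 1 the strongest of them was the printed intron 2 site at 11.55 kb, with 3.87. Replicate 2 had it in its larger list alone, at 0.968, and its strongest was the site at 2.65 kb. The composite of the printed site at 11.55 kb spans positions 97 to 113. Its GATAA, at 109 to 113, lay wholly in a footprint of replicate 1 and with 4 of 5 bases in one of replicate 2. A second GATAA, at 141 to 145, shared 2 bases with a footprint of replicate 1. The intron 2 sites at 2.65 kb (3.18 and 2.05) and 7.31 kb (2.15 and 1.29) were called in both libraries, as was an upstream site at -14.8 kb, with 2.22 in replicate 1 and 2.66 in replicate 2. The site called in replicate 2 alone, in exon 2 at 1.75 kb, had 0.976 there and 1.23 in the larger list of replicate 1.

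Xpo7 (ENSMUSG00000022100.14, chromosome 14:70654246-70766628, minus strand) encodes exportin 7, a nuclear export receptor that is abundant in red cell precursors and takes part in emptying and condensing their nucleus. Its promoter peak, centred at -157 bases, had 6.40 in replicate 1 and 3.85 in replicate 2, a mean of 5.12 ± 1.80 (SD, n = 2) at percentile 40.42. The same peak lay within 1 kb of a start of Dok2, an adaptor of receptor signalling in blood cells, so its signal cannot be assigned to 1 of the genes. A site at -1.11 kb, near another start, had 1.80 in replicate 1 and 0.805 in the larger list of replicate 2. The internal start at 58.4 kb in intron 1 had 1.49 in replicate 1 and no peak in replicate 2. Its GATAA, at positions 136 to 140 of the printed stretch, lay wholly in a footprint of replicate 1.

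Over 152.4 kb the Xpo7 window held 7 distal sites, with signals between 0.906 and 2.61 in replicate 1. In replicate 1 the strongest was the printed intron 1 site, 53.4 kb from the start, which replicate 2 did not call. Its composite, at positions 42 to 58, lay wholly in a footprint of 32 bases there. The 2 distal sites called in both libraries lay upstream, and neither was higher in replicate 1. The one at -14.4 kb had 2.28 and 2.30, and the one at -3.18 kb had 1.20 and 1.74. Both the -14.4 kb site and a downstream site at 119.3 kb held the core of the CTCF motif. The promoter of Npm2, a histone chaperone of the egg that lies at the other end of Xpo7, had 4.26 and 2.67.

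Trim58 (ENSMUSG00000037124.6, chromosome 11:58640465-58652404, plus strand) encodes a ubiquitin ligase that appears late in red cell maturation and marks the motor protein dynein for degradation before the nucleus is expelled. Its promoter peak, centred at -74 bases, was the lowest of the 7, with 3.94 in replicate 1 and 2.48 in replicate 2. The mean was 3.21 ± 1.04 (SD, n = 2), at percentile 24.94. In replicate 1 it was lower than the printed intron 1 site at 1.35 kb, which had 5.16, and in replicate 2 the order was the opposite, with 1.76 at the intron site. Among the 12 distal sites of the 7 genes called in both libraries, this one had the highest ratio of replicate 1 to replicate 2, a log2 ratio of 1.55. A second intron site, at 3.14 kb in intron 2, had 3.27 and 2.42, and an upstream site at -3.69 kb had 1.95 and 1.61. With 4 distal sites in 51.94 kb, 3 of them called in both libraries, Trim58 had nearly as many per 100 kb as Foxo3.

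The composite of the Trim58 intron 1 site spans positions 88 to 104. A footprint of replicate 1 covered 6 of its bases, on the side of the CTG, and the GATAA itself lay outside the footprints of both libraries. Weak promoter sites were called in exon 1 at 253 bases in replicate 2 alone (0.927) and in intron 1 at 776 bases in replicate 1 alone (1.14). The site at 776 bases had 0.862 in the larger list of replicate 2. The remaining distal site, at 1.68 kb in intron 1, had 0.663 in replicate 1 alone.

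Trim10 (ENSMUSG00000073400.6, chromosome 17:36869574-36877833, plus strand) encodes a RING finger protein of the same TRIM family that red cell precursors need for terminal differentiation. Its peak centred at -93 bases had 6.58 in replicate 1 and 2.18 in replicate 2, a log2 ratio of 1.59, the highest of any promoter site of the 7 genes. A second peak, in exon 1 at 527 bases, had 3.53 and 2.94 and was the stronger one in replicate 2. Its best promoter peak therefore lay at different sites in the 2 libraries, and the mean of the best peaks, 4.76 ± 2.58 (SD, n = 2) at percentile 37.62, joins both sites. The printed promoter holds TTATC, the reverse complement of GATAA, at positions 51 to 55. A footprint at positions 50 to 58 covered it wholly in replicate 1, and a footprint with the same bounds did so in replicate 2. It was the only GATAA match at a promoter site of the 7 genes that a footprint of both libraries touched.

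A weak site upstream of Trim10, at -566 bases, had 0.655 in replicate 1 alone. Its 1 distal site, 27.2 kb from the start and downstream of the gene, had 0.789 in replicate 1 alone, and 94.3% of its bases were marked as repeat in the reference, more than at any other site of the 7 genes. The neighbouring TRIM gene Trim15 had a promoter peak of 0.999 and 1.05 within the Trim10 window, and a second one of 0.814 in replicate 1 alone. At this second one the larger list of replicate 2 had 0.724.

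Ube2o (ENSMUSG00000020802.8, chromosome 11:116537740-116581447, minus strand) encodes an enzyme that both carries and attaches ubiquitin and, in reticulocytes, marks ribosomal proteins for degradation. Its promoter peak, centred at -84 bases, had 8.35 in replicate 1 and 4.67 in replicate 2, a mean of 6.51 ± 2.60 (SD, n = 2) at percentile 50.59. It had 5 promoter sites, the most of the 7 genes, of which 4 were called in both libraries. A site in intron 1 at 486 bases had 2.52 and 1.90. A short peak between these, in exon 1 at 237 bases, had 1.10 in replicate 1 alone. The other 2 lay at internal starts, 32.0 kb away in intron 1 of the principal transcript (3.09 and 1.16) and 38.1 kb away in intron 12 (1.46 and 1.45).

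Of the 5 distal sites of Ube2o the strongest was the printed intron 1 site at 9.37 kb, with 6.38 in replicate 1 and 2.59 in replicate 2. In replicate 1 this was percentile 97.57 of the distal sites of the genome, and in replicate 2 percentile 84.21. Its GATAA at positions 81 to 85 stood at the edge of a footprint, which took in 2 of its bases in replicate 1 and 3 in replicate 2. Between positions 92 and 115 both libraries had a footprint of 24 bases with the same bounds. A neighbouring site at 8.07 kb had 3.06 and 1.32, and the other 3 distal sites, with signals from 1.20 to 1.49, were called in replicate 1 alone. The one with 1.49 had 1.04 in the larger list of replicate 2. Neighbours had much of the signal of the Ube2o window. Sphk1, a kinase of sphingosine, had 4 promoter sites, the strongest with 5.67 and 3.36, and Aanat, an enzyme of melatonin synthesis, had 2, the stronger with 8.42 and 6.73. That Aanat peak was higher than the Ube2o promoter in both libraries.

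**Figure D2:**
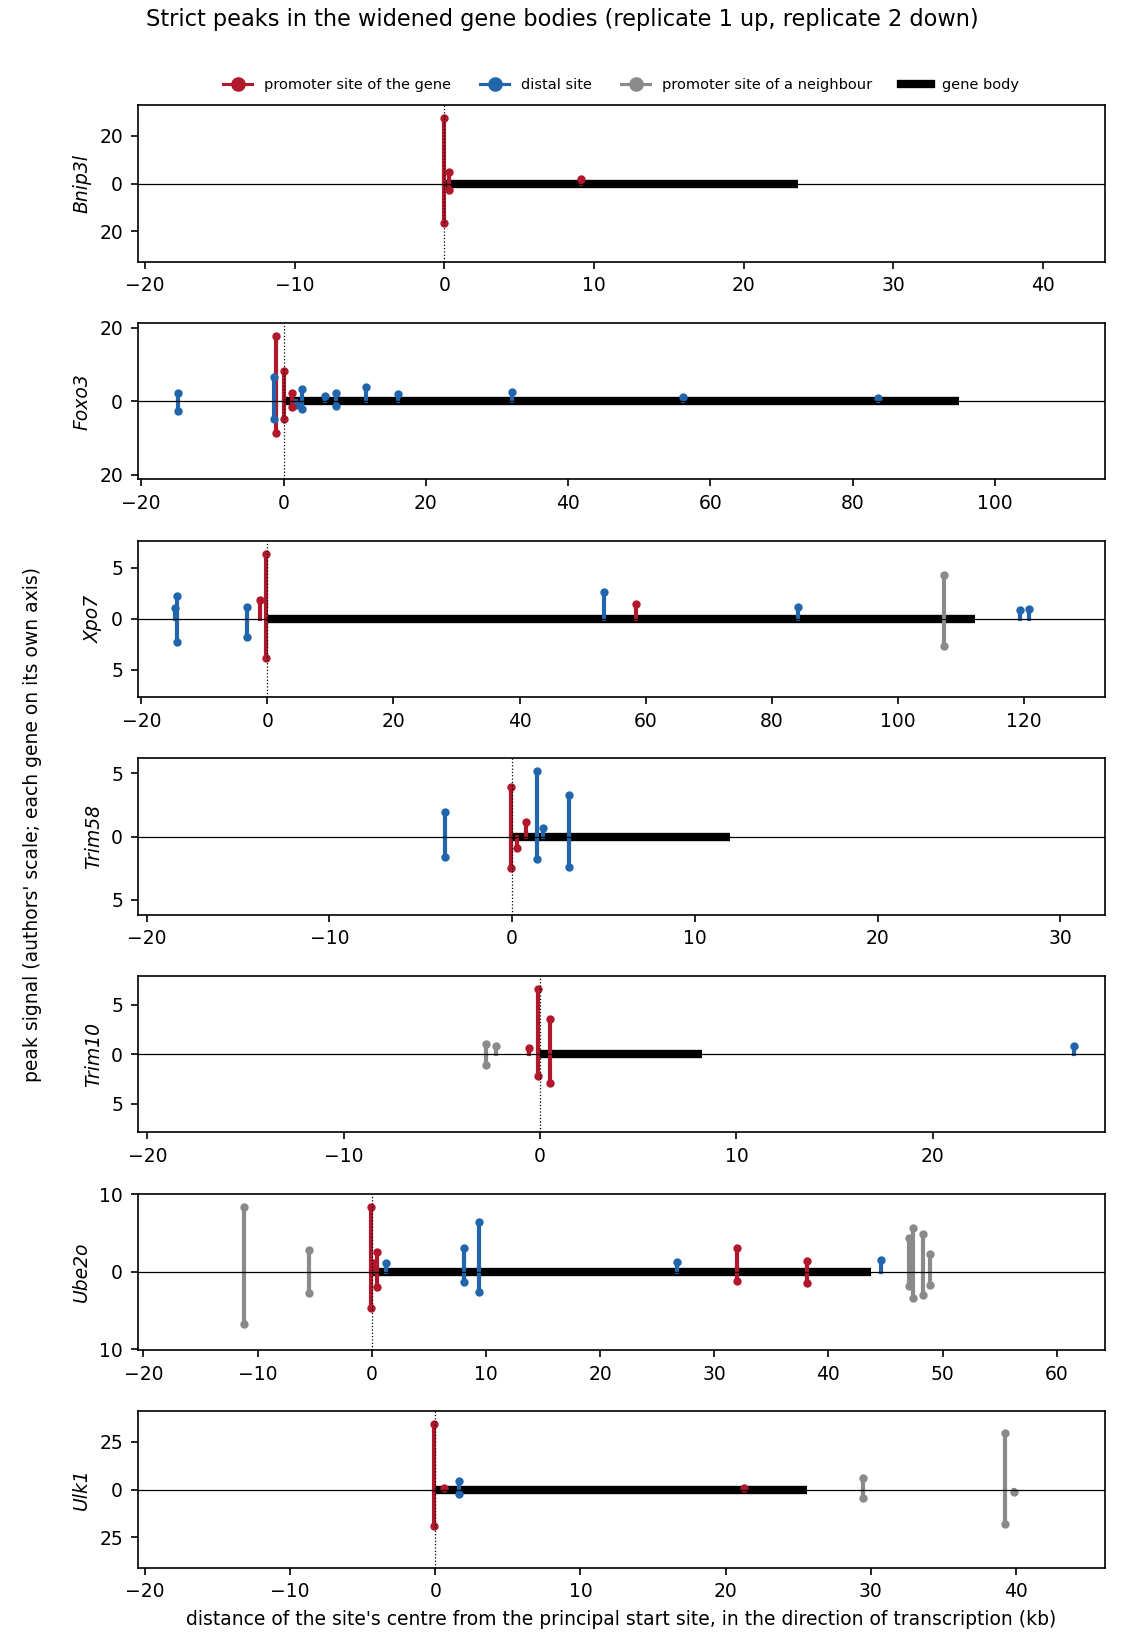
Strict peaks in the widened body of each of the 7 genes, against the distance of the site's centre from the principal start in kb, with signal of replicate 1 drawn upward and of replicate 2 downward (authors' scale, a separate axis for each gene). Bnip3l and Ulk1 have tall peaks at the start and 0 and 1 distal sites, Foxo3 has 11 distal sites spread over the upstream side and the gene body, and the tall peaks at the right of Ulk1 and both sides of Ube2o belong to neighbours.

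Taken over all 7 windows, 600 kb in all, 64 sites were called, of which 23 were promoter sites of the genes, 29 were distal and 12 belonged to promoters of neighbours. Pooled over the windows, distal sites amounted to 4.83 per 100 kb. The values of single genes over all protein-coding genes, those without a promoter peak included, had a median of 1.33 and a mean of 2.28. Per 100 kb Foxo3 had 8.15 (percentile 94.4), Trim58 7.70 (93.8), Ube2o 5.97 (89.3), Xpo7 4.59 (83.8), Trim10 2.07 (62.1), Ulk1 1.52 (52.7) and Bnip3l 0. These values count sites called in 1 or both libraries. Called in both were 4 sites of Foxo3, 3 of Trim58, 2 of Xpo7, 2 of Ube2o, 1 of Ulk1 and 0 of Trim10 and Bnip3l, so the order of the genes was not the same for sites called in both. With replicate 2 alone the distal sites of the 7 genes were 13 and with replicate 1 alone 28.

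**Figure D3:**
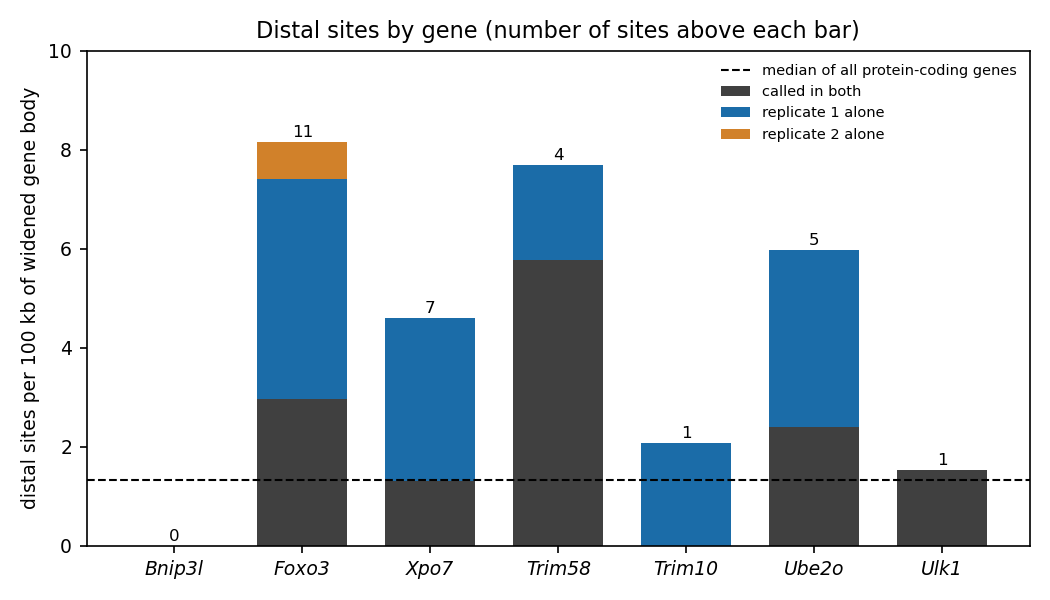
Distal sites per 100 kb of the widened gene body, with the number of sites above each bar and colours for sites called in both libraries, in replicate 1 alone and in replicate 2 alone. The dashed line is the median of all protein-coding genes, 1.33, and Foxo3, Xpo7, Trim58, Trim10, Ube2o and Ulk1 lie above it while Bnip3l has 0.

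Of the 23 promoter sites of the genes 14 were called in both libraries (60.9%), against 69.0% of all promoter sites of the genome. Of the 17 at the principal start 12 were called in both, and of the 6 at other starts alone 2 were, both in Ube2o. Of the 29 distal sites 12 were called in both (41.4%), against 35.5% of all distal sites. Neither share was far from that of the genome. Of the 16 distal sites called in replicate 1 alone, 4 overlapped the larger list of replicate 2, against 35.8% of such sites in the genome. For 7 of the 16 the deposited false discovery rates of replicate 2 listed at least 1 base under 0.05. The matching share over the genome was not computed, so this count has no background to be read against. The median signal of the 16 sites in replicate 1 was 1.20. At least 1 site called in both libraries and outside promoters lay in the windows of Foxo3, Xpo7, Trim58, Ube2o and Ulk1, 5 of the 7 genes, and 37.3% of protein-coding genes had one.

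Signal was higher in replicate 1 at all 14 promoter sites of the genes called in both libraries, with a median log2 ratio of replicate 1 over replicate 2 of 0.74. Over all promoter sites of the genome called in both, the median was 0.65 and replicate 1 was higher at 95.5%. At the 12 distal sites it was higher at 9, with a median of 0.55, against 0.39 and 78.8% for distal sites of the genome. The 3 exceptions were the upstream sites of Foxo3 at -14.8 kb (log2 ratio -0.26) and of Xpo7 at -3.18 kb (-0.54) and -14.4 kb (-0.01). Ratios of this kind assume that heights in the libraries share a scale. Sites with the highest ratios were the Trim10 promoter (1.59), the Trim58 intron 1 site (1.55), the internal start of Ube2o at 32.0 kb (1.41) and the Ube2o intron 1 site at 9.37 kb (1.30).

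**Figure D4:**
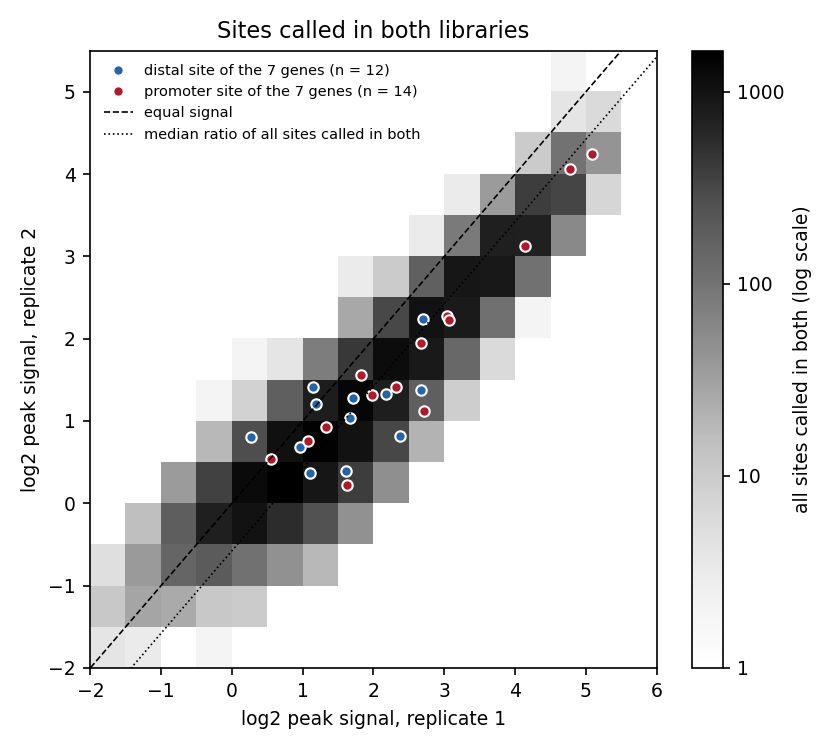
Log2 signal of replicate 1 (x axis) against replicate 2 (y axis) at sites called in both libraries, with all sites of the genome as a grey density (log scale of counts) and the 26 sites of the 7 genes as points. The 14 promoter points lie on the replicate 1 side of the line of equal signal, and 3 of the 12 distal points lie on or beyond it.

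Footprints were then counted over all windows. The 7 windows held 241 footprints in replicate 1 and 179 in replicate 2, between 7 and 54 bases wide, and 201 and 125 of these lay in strict peaks. Of those in strict peaks, 51.7% in replicate 1 and 77.6% in replicate 2 overlapped a footprint of the other library, against 50.4% and 74.2% over the genome. By window, promoters of neighbours included, that of Ulk1 had the highest such shares, 75.0% of 24 and 89.5% of 19. In it the stronger Ep400 site overlapped 10 footprints in each library and the Pus1 site 4 and 2. The Ulk1 promoter site at -104 bases overlapped 5 in each. The window of Trim10 had the lowest share in replicate 1, 31.6% of 19, while in replicate 2 its share was 80% of 5. Of the 52 promoter and distal sites of the genes 31 had a footprint in both libraries (59.6%), against 59.9% of all sites of the genome. By class these were 15 of 23 promoter sites, against 70.2%, and 16 of 29 distal sites, against 52.4%. These shares lay near the background.

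Over the 11 letter patterns searched, the largest gap to the genome, in percentage points, was that of GATAA at promoter sites. In a window of 200 bases on the centre of the site, GATAA occurred at 8 of 23 promoter sites of the genes (34.8%), against 9.65% of all promoter sites. It occurred at 10 of 29 distal sites (34.5%), against 21.7%. Of these distal sites only those of Trim58 at 1.35 and 3.14 kb and of Ube2o at 9.37 kb were called in both libraries. All the other distal ones were called in replicate 1 alone, so the distal share rests largely on 1 library. The 8 promoter sites belonged to 6 genes, all but Ulk1, and 5 of them lay at the principal start and 3 at other starts. Called in both libraries were those of Foxo3 at 1.18 kb, Trim58 at -74 bases, Trim10 at -93 bases and Ube2o at 32.0 kb. The rest were called in replicate 1 alone. Among these were the Xpo7 internal start (1.49), Trim58 at 776 bases (1.14) and Trim10 at -566 bases (0.655). At the promoter site of each gene with the highest mean signal, GATAA was found in Trim58 and Trim10 and in none of the other 5. The ratio of observed to expected CpG in 500 bases was lowest at the same 2 promoters, 0.0993 at Trim10 and 0.542 at Trim58, against 0.815 at Ulk1 to 1.12 at Ube2o for the others and a median of 0.740 over all promoter sites. Base composition therefore differed along with the letters, and its part in the GATAA shares was not tested.

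In windows of 30 bases on footprints of replicate 1, GATAA was found at 5 of 80 promoter footprints of the genes (6.25%, against 1.16% of those of the genome) and at 6 of 77 distal ones (7.79%, against 3.54%). In replicate 2 it was found at 2 of 54 (3.70%, against 0.835%) and at 1 of 38 (2.63%, against 2.53%). The composite of CTG and GATAA occurred at 3 of 29 distal sites, one each in Foxo3, Xpo7 and Trim58, against 4.23% of distal sites of the genome, and at none of the 23 promoter sites, against 1.38%. CACCC was as frequent as elsewhere, at 14 of 29 distal sites (48.3%, against 49.7%) and 11 of 23 promoter sites (47.8%, against 52.9%). GGGCGG occurred at 9 of 23 promoter sites (39.1%, against 52.2%) and at 2 of 29 distal sites, against 12.7%.

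CAGNTG, the E-box of factors such as TAL1, was found at 17 of 29 distal sites (against 53.9%) and 12 of 23 promoter sites (against 35.3%). It can share bases with the CTG of the composite. CACGTG, the E-box of MYC and TFE-type factors, was found at 4 of 29 distal (against 4.82%) and 1 of 23 promoter sites (against 7.18%). The core of CTCF, a factor of chromatin loops, was found at 3 of 29 distal sites, 2 of them in Xpo7 and 1 in Trim10, against 10.3%, and at 0 of 23 promoter sites, against 1.69%. CCGGAAG of ETS factors, the NRF1 core and TTCNNNGAA of STAT factors were each found at 1 of 23 promoter sites, in Trim10, Xpo7 and Trim58, against 11.1%, 6.55% and 3.61%, and at 0 of 29 distal sites, against 2.81%, 0.573% and 5.32%. GTAAACA, the core bound by forkhead factors including FOXO3 itself, was found in none of these windows, against 2.52% of distal and 1.60% of promoter sites. Outside the window, 1 GTAAACA match lay in the Xpo7 promoter peak, in no footprint of either library. Also outside it, an NRF1 core lay in the Foxo3 peak over the start site. It shared 6 bases with a footprint of replicate 1 and 7 with one of replicate 2. TTCNNNGAA lay outside it in the Ulk1 site at 577 bases and the Ube2o distal site at 8.07 kb, in no footprint. All searches covered both strands, and a stretch that matched on both was counted once.

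Other genes of the same processes were read at their promoters. Of 39 autophagy genes, all 39 had a strict promoter peak in both libraries, where 51.1% of all protein-coding genes did. The highest means were those of Wipi1 (21.8 and 14.4, mean 18.1 ± 5.24) and Wipi2 (21.2 and 11.5, mean 16.3 ± 6.84), which bind the lipid of the forming membrane, and of Atg2a (21.4 and 11.1, mean 16.2 ± 7.32; SD, n = 2 for each), which carries lipid to it. Ulk1 and Bnip3l stood above these 3 in both libraries. The median of the list was 9.39 in replicate 1 and 5.56 in replicate 2, against 7.94 and 4.82 over all genes peaked in both libraries.

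Of 18 genes of nuclear expulsion and nuclear export 17 had a peak in both libraries, with medians of 13.3 and 7.68 over the list, genes with no peak entered as 0. They were led by Epb41, for protein 4.1 of the membrane skeleton (35.3 and 19.5, mean 27.4 ± 11.2) and Xpo1, the main export receptor (23.7 and 13.3, mean 18.5 ± 7.33; SD, n = 2 for each). The other gene, Emp1, encodes epithelial membrane protein 1, whose part in nuclear expulsion is not established, and had no strict promoter peak in either library. Xpo7 and Trim58 lay below the median of this list in both. Of 16 genes of reticulocyte protein turnover, other TRIM ligases included, 14 had a peak in both, with medians of 9.59 and 5.38. The highest means were those of Ube2h, a ubiquitin conjugating enzyme (30.5 and 22.8, mean 26.7 ± 5.45), and of the chaperones Hspa8 (24.6 and 12.7, mean 18.7 ± 8.41) and Hsp90aa1 (23.0 and 14.1, mean 18.5 ± 6.24; SD, n = 2 for each). Alox15, the lipoxygenase that attacks organelle membranes of the reticulocyte, and the TRIM gene Trim31 had no strict promoter peak in either library. Ube2o and Trim10 lay below the median of this list in both libraries.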

How the data were processed

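DNase-seq of 2 spleen libraries was analysed from files deposited per library. Alignments were made to mm10, per the file headers and descriptions, while no label or file description names the aligner, peak caller or footprint caller. The peak lists deposited by the authors carry 1 signal value per peak. Deposited false discovery rates, read as p-value units, cover the bases below 0.05, and the score of the deposited footprints is 1 constant, so footprints were used by position alone. Of the 2 peak lists per library the one with fewer bases was used.

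The genes were chosen by name, and the members, lists and letters were chosen with earlier results of these data known. Sites were merged on 1 shared base, and promoters were within 1 kb of a start in GENCODE M21. Sites were classed, counted and compared with all protein-coding genes (21938) or all sites with Python 3.11.15, NumPy 2.4.6 and pysam 0.24.0, and figures were drawn with matplotlib 3.10.9. Sequence came from the RefSeq GRCm38 genome, whose chromosome lengths match mm10. The principal start is that of the principal transcript. The steps were tested on simulated data. Both libraries are of 1 group, so values are given per library or as mean ± SD, with no test. The best promoter peak of a gene was taken in each library by itself. Named besides the 7 genes were the 3 highest and all unpeaked genes of each pathway list, genes whose promoter lies in a window, and the gene of most similar pattern. Of the sites, all promoter sites and the 3 strongest distal sites of each gene were named by rule, and others were chosen after their values were seen. Of the genes and sites this rule names, 1 gene and 1 site are not reported here. Alternatives covered the peak list, the promoter and gene windows, the overlap, the letters and each library alone. Depth is unknown, which leaves the precision of single peaks unmeasured.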

Additional observations from a re-analysis of the deposited data

How the results depend on the processing

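Of 53 alternatives to the summary values 50 left the value within 1.5 times of that reported. The 3 that moved it further all concerned the count of distal sites of the 7 genes, reported as 29. These were 16 with the strongest 50% of each library's strict peaks, 50 with the gene body widened by 50 kb, and 13 without replicate 1. Without replicate 2 the count was 28, which stayed within 1.5 times. The first and last rest on fewer peaks by construction, and the wider window takes in more sequence. The count of genes with a promoter peak in both libraries was 7 in all 8 alternatives, 1 of which, the start of the principal transcript alone, was chosen after seeing the data. A promoter limit of 2 kb, or each library alone, could not lower this count or those of the pathway lists. Many of the 53 alternatives were promoter peak counts already at or near their maximum (7 of 7, 39 of 39, 17 of 18 and 14 of 16). The 50 is therefore not a measure of how firm the results are. It also takes in a share of distal sites called in both libraries of 54.5%, against 41.4%, when both lists were cut to equal length. The share of all protein-coding genes with a promoter peak in both libraries was 43.0% with the strongest 50% of peaks and 56.1% with the larger lists. Distal sites with a GATAA numbered 8 to 14 over 4 alternatives, against 10, and the share of all distal sites moved with them, from 12.1% in the narrowest window to 39.3% in the widest. No alternative was run for the count of promoter sites with a GATAA. No paired analysis was possible because there is 1 group. Read depth is unknown, so the depth behind a site called in 1 library alone could not be given.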

Other observations

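For each gene, the protein-coding gene with the most similar pattern was found over 4 values, the best promoter signal and the summed distal signal in each of the 2 libraries, on the log2(1 + signal) scale. It was Smarcc1 for Bnip3l, with promoter signals of 27.5 and 16.6 and a distal signal of 0, and Stat3 for Ulk1, with promoter signals of 29.3 and 20.4. It was Ap3d1 for Foxo3 (18.5 and 9.43), Nop53 for Xpo7 (7.07 and 3.74), Smim5 for Trim58 (3.49 and 2.42), Cep44 for Trim10 (7.08 and 2.69) and Ap2a2 for Ube2o (7.54 and 4.90). The Euclidean distance was lowest for Bnip3l and Smarcc1, 0.00507, and between 0.133 and 0.301 for the other 6 pairs. Both Bnip3l and Smarcc1 had a distal signal of 0, so the distal values added nothing to their distance. It is therefore not comparable with those of the other pairs. These pairs describe 2 libraries.

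The strict lists were not wholly contained in the larger ones. In replicate 1, 531 strict peaks (1.10%) overlapped no peak of the larger list of the same library, and in replicate 2, 401 (1.39%) did not. Among the sites of the 7 genes these were the peak in exon 1 of Trim58 at 253 bases, with a signal of 0.927 in replicate 2, and the peak in exon 1 of Ube2o at 237 bases, with 1.10 in replicate 1. Both were short, 63 and 50 bases, against a median of 220 bases for promoter sites of the 7 genes.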
